A study of Mus musculus with 8 samples.

Results

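The comparison described here sets hearts on day 3 after their left anterior descending coronary artery (LAD) was tied off against untreated hearts. Its members are the arrays labelled as 3-day ligated or as normal heart, 4 of the 8 arrays of the series: 1 array of a ligated C57BL/6 heart, 1 of a ligated MRL/MpJ heart, and 1 array of an untreated heart of each strain. All mice were males of 2 to 4 months, and the RNA was total RNA of the left ventricle. The other 4 arrays hold hearts on day 30 and day 60 after ligation, 1 per strain and day, and were used to estimate the spread between arrays and for one further comparison. C57BL/6 is the common inbred laboratory strain, and MRL/MpJ is an inbred strain known for closing ear punch wounds with little scar. The untreated hearts had no operation, so ligation and surgery cannot be told apart. The labels give neither the number of mice behind an array nor the region of the ventricle taken.

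Ligation of the LAD stops the blood supply of part of the left ventricle, and the muscle it fed dies within hours. Neutrophils and then monocytes enter, dead tissue is cleared by macrophages, and resident fibroblasts divide, turn into myofibroblasts and lay down a collagen scar, while the surviving muscle is stretched by a higher load. In mice, day 3 lies in the passage from inflammation to scar formation.

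Each value is the authors' MAS5 signal of a probe set, the 3' expression arrays' linear measure of brightness. Changes are given on the scale log2(signal + 28.6), where 28.6 is the 20th percentile of all signals and keeps very low signals from giving large ratios, so that changes of dim genes are understated. The 4 arrays had median signals of 122.7 and 129.6 on day 3 (C57BL/6 and MRL/MpJ) and 118.2 and 115.6 untreated. Correlations between arrays lay between 0.884 and 0.948, except those with the day 30 array of C57BL/6, which stood apart at 0.844 to 0.877. Signals of a gene are given below in the order C57BL/6, MRL/MpJ. Genes are compared between arrays only, since the signals of 2 probe sets have no common scale.

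The ventricular label was checked against muscle markers. The summed signal of 15 cardiomyocyte genes was 275500 and 303104 on day 3, against 244620 and 282090 untreated. Without Nppa, which is also an atrial and stress gene, the sum of the other 14 was 268894 and 274750 on day 3, against 241165 and 276309 untreated. Genes that mark atrial muscle were also present and stood apart between the strains: the light chain Myl7 had signals of 1078 and 97.6 on day 3, against 442.3 and 532.5 untreated, and the calcium pump regulator Sln had 858.4 and 6.1 on day 3, against 251.4 and 234.6 untreated. Of 7 kept atrial markers 3 were higher in both strains, none was lower in both and 4 differed in direction, and their part in the results on stress genes of muscle was not tested.

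No gene of 8195 kept for testing passed an adjusted p of 0.05 between day 3 and untreated hearts (0%) in limma with the strain as a block, and the lowest adjusted p was 0.0559. At an unadjusted p under 0.05, 372 genes were higher on day 3 (4.54%) and 163 lower (1.99%). That total of 535 was 348 without the untreated array of C57BL/6, 286 without that of MRL/MpJ, 288 without the day 3 array of MRL/MpJ and 944 without either day 30 array. An unadjusted p under 0.05 would be expected for 410 of 8195 genes if none differed. The statements below that genes stood higher or lower therefore describe these arrays. In all, 2567 genes (31.3%) had the higher signal on day 3 in both strains and 2204 (26.9%) the lower one in both, and 3424 had opposite directions. These shares are the background for every count of list members higher or lower in both strains below. The 2 strains share no array, and their changes had a correlation of 0.27 across genes, which are not independent of each other. Changes were wider in MRL/MpJ: 408 genes were at least 2-fold higher and 216 at least 2-fold lower there, against 199 and 109 in C57BL/6.

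A total of 85 genes stood at least 2-fold higher on day 3 in both strains (1.04%) and 6 at least 2-fold lower in both (0.0732%). The 2 counts are not on equal terms, since genes were kept on a signal of 121 in 2 of 8 arrays. Most arrays are of ligated hearts, and a gene under 121 in all of these could pass only on both untreated arrays. Without the filter the counts were 114 and 18. Of the 85 genes, 47 belong to one of the gene lists used below, and 63 had the larger change in MRL/MpJ. An unadjusted p under 0.05 in limma was seen for 82, but the same changes were used to pick the genes. That p therefore gives no separate support for them. Both untreated signals lay under the median signal of 121 for 50 of them. Another 48 probe sets measure 34 of these genes, and 38 of the 48 were also higher on day 3 in both strains. Among all genes named below with 1 direction in both strains, 47 have further probe sets, and for 15 at least 1 of these did not share that direction: Cat, Clec4n, Col11a1, Cpt2, Dnajb1, Fmod, Fzd4, Ighm, Mastl, P4ha1, Psrc1, Rrm2, Tmsb10, Vegfd and Zdhhc6. Close to the 2-fold limit, Ctsk lay inside it with changes of 1.01 in C57BL/6 and 1.61 in MRL/MpJ, and Col6a2 outside it with 0.98 and 1.83.

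**Figure D1:**
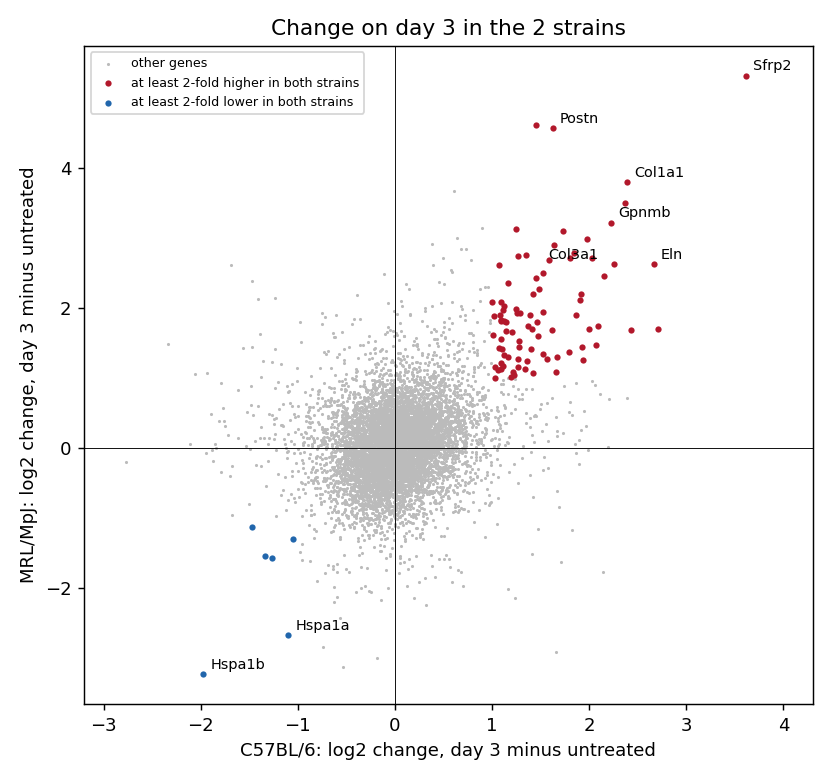
Change on day 3 against untreated, as a log2 difference, in MRL/MpJ (vertical) and C57BL/6 (horizontal). Each of the 8195 points is a gene, with the 85 genes at least 2-fold higher in both strains in red and the 6 at least 2-fold lower in both in blue. The named genes at the upper right are matrix genes, Sfrp2 and the macrophage gene Gpnmb, and Hspa1b and Hspa1a lie at the lower left.

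The genes of scar matrix led the day 3 hearts in both strains. Type I and type III collagen are the fibrils of scar, and Col1a1, a chain of type I collagen, had signals of 3516 in C57BL/6 and 7072 in MRL/MpJ on day 3, against 646.3 and 485.5 untreated. Col1a2, the partner chain, had 4936 in C57BL/6 and 10356 in MRL/MpJ on day 3, against 935.7 and 889.7 untreated, and Col3a1, the chain of type III collagen, had 8957 in C57BL/6 and 16636 in MRL/MpJ on day 3, against 1858 and 2677 untreated. Each day 3 signal of the 3 genes was more than 3 times as high as either untreated signal. Their changes were 3.09 (SE 0.34), 2.93 (SE 0.32) and 2.44 (SE 0.26) on the log2 scale, with the same adjusted p of 0.0559 in limma.

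Col5a2 and Col11a1, chains of the minor fibrillar collagens that nucleate fibrils, stood higher as well. Col5a2 had signals of 1478 and 3648 on day 3, against 389.6 and 505.2 untreated. Col11a1 had signals of 151.2 and 388.6 on day 3, against 19.4 and 68.2 untreated, and its other probe set gave changes of -0.05 in C57BL/6 and 1.10 in MRL/MpJ. Of 21 measured fibrillar collagens and processing enzymes, 14 were higher on day 3 in both strains and 1 was lower in both (background 31.3% and 26.9%), with a median change of 0.76 against 0.02 over all genes. Lox, the copper enzyme that crosslinks collagen and elastin, had signals of 509.9 and 1019 on day 3, against 194.6 and 128.9 untreated. By contrast the hydroxylase P4ha1 had 324.8 and 322.8 on day 3, against 358.1 and 363.1 untreated. Among 24 other collagens and basement membrane genes, 15 were higher in both strains, with Col14a1, which decorates fibrils, at 487.7 and 1135 on day 3, against 202.1 and 199.1 untreated, and Col6a1, of the microfibrils around cells, at 1345 and 2316 on day 3, against 594.9 and 710 untreated.

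The start of the Col1a2 transcript is shown because this gene was among the 4 with the largest changes that both strains share. Its upstream 150 bases lie on chr6:4505468-4505617 (GRCm38.p6, plus strand, RefSeq), written 5′ to 3′, and the capitals mark the motif CCAAT, which begins 109 bases before the transcript. The same letters, on either strand, occur in the 250 bases upstream of 33.9% of the 32851 promoters counted, which belong to 27025 genes. They occur in 5 of the 14 genes of the fibrillar collagen list that have an entry. The 150 bases upstream of Col3a1 were searched in the same way and held no match. The 33.9% counts promoters and the 5 of 14 counts genes, so the shares are not on equal terms.
Col1a2: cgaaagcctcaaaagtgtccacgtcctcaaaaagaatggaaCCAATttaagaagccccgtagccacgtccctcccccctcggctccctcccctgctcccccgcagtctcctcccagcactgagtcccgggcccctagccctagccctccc

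Elastic fibre and adhesive matrix genes stood higher with the collagens. Eln, elastin itself, had signals of 2208 in C57BL/6 and 1943 in MRL/MpJ on day 3, against 323.8 and 292.1 untreated. The change was nearly equal in the 2 strains, 2.67 in C57BL/6 and 2.62 in MRL/MpJ, with a mean of 2.64 (SE 0.36) and an adjusted p of 0.0749 in limma. Fn1, the fibronectin on which cells migrate into a wound, had signals of 2276 and 3679 on day 3, against 558.1 and 442 untreated. In all, 21 of 25 measured matricellular and adhesive matrix genes were higher in both strains and none was lower in both, 9 at least 2-fold, with a median change of 1.45.

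Matricellular proteins are secreted into wounds and steer cells rather than bear load. Tnc, tenascin C, had signals of 142.3 and 379 on day 3, against 26.2 and 26.2 untreated. Postn, periostin of activated fibroblasts, had 1659 and 6776 on day 3, against 519.2 and 259.1 untreated, and its change was larger in MRL/MpJ, at 1.62 in C57BL/6 and 4.56 in MRL/MpJ. Comp, which assembles collagen fibrils in tendon and cartilage, had 341.6 and 856.6 on day 3, against 94.3 and 109.7 untreated. Ccn5, of the CCN family of matrix signals, had 391.8 and 779.7 on day 3, against 117.2 and 181.4 untreated. All these day 3 signals lay above both untreated ones. Fndc1, a protein with fibronectin type III repeats, stood at 406.5 and 515.6 on day 3, against 90.9 and 118.3 untreated, with nearly equal changes of 1.86 in C57BL/6 and 1.89 in MRL/MpJ.

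Small proteoglycans bind collagen fibrils, and their list was drawn up together with hyaluronan genes. Of its 9 measured genes 7 were likewise higher in both strains and none lower in both, with a median change of 1.05. Lum, lumican, had signals of 1910 and 5193 on day 3, against 787.2 and 1298 untreated, and Fmod, fibromodulin, had 243.1 and 606.4 on day 3, against 134.7 and 60.2 untreated. Dcn, decorin, was already bright in untreated hearts and had 6444 and 9212 on day 3, against 3988 and 3459 untreated.

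**Figure D2:**
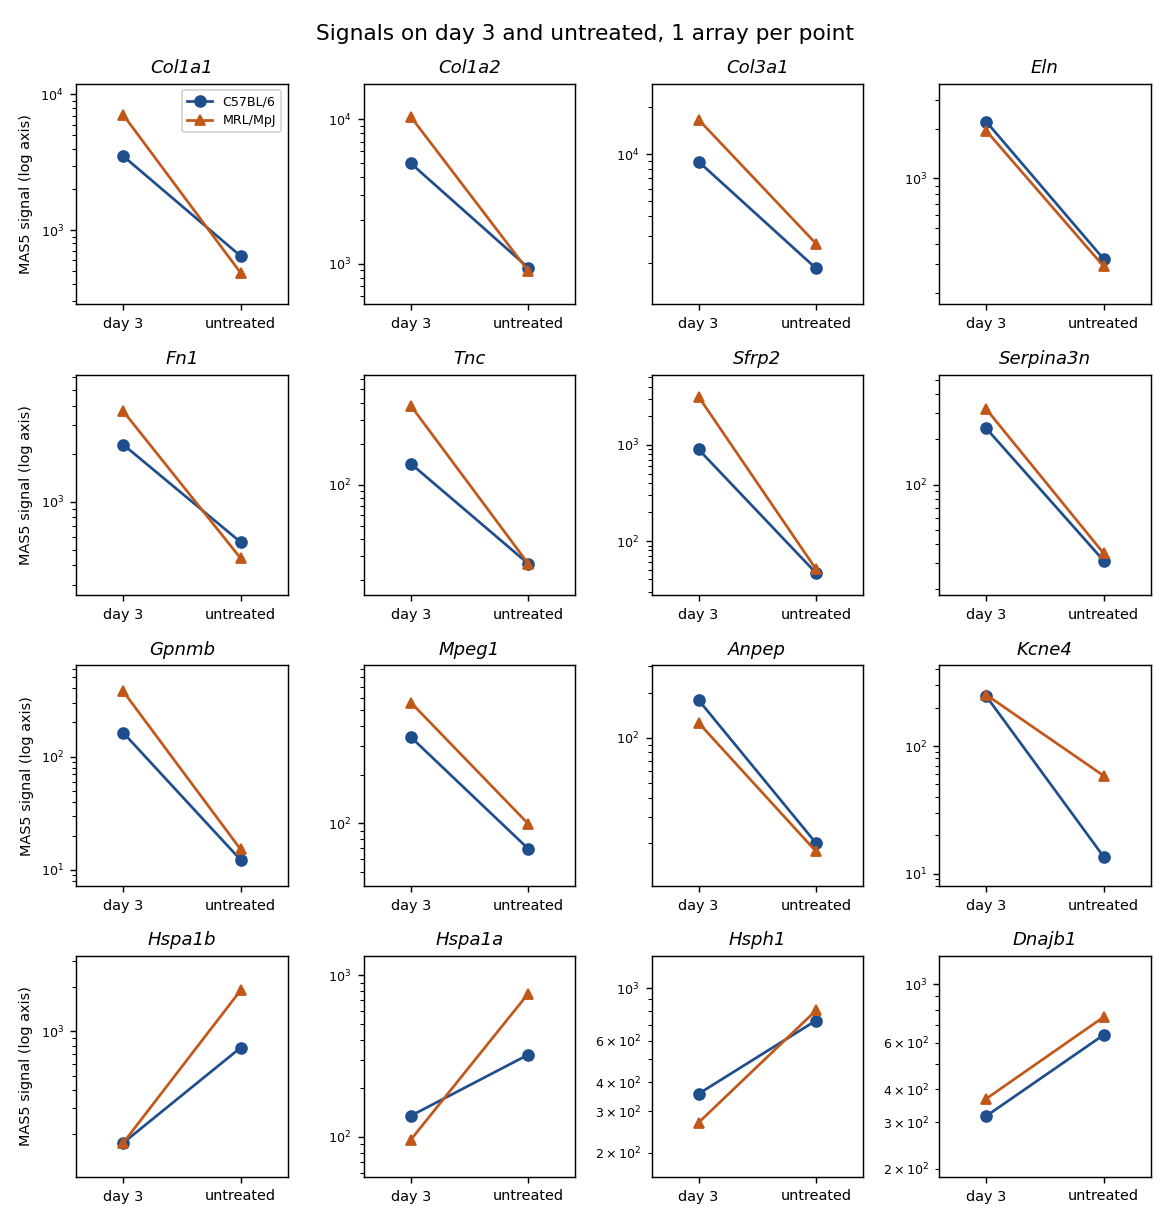
Signals of 16 genes (vertical, log axis) on day 3 (left in each panel) and untreated (right), with a line joining the 2 arrays of a strain, C57BL/6 as circles and MRL/MpJ as triangles. The 12 genes of the first 3 rows have both day 3 signals above the untreated ones, and the 4 chaperone genes of the last row have both below.

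Genes that remodel matrix stood higher too, 13 of 21 in both strains against 3 lower in both. Mmp2, the gelatinase of fibroblasts, had signals of 1282 and 2248 on day 3, against 448.3 and 629.9 untreated, and Mmp14, the membrane protease that activates it, had 492.6 and 581.1 on day 3, against 175 and 230 untreated. The inhibitor Timp1 had 349.2 and 881.7 on day 3, against 130.8 and 75.4 untreated. Serpina3n, a secreted serine protease inhibitor of the acute phase, had 237.1 in C57BL/6 and 318.7 in MRL/MpJ on day 3, against 31.1 and 34.8 untreated, with a change of 2.30 (SE 0.27) and an adjusted p of 0.0635 in limma. Its signals were higher still later, with 434 and 754.6 on day 30 and 482.5 and 499.1 on day 60.

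Sfrp2 had the largest change that both strains share. Its product is secreted by fibroblasts of injured heart and can bind Wnt ligands. Its signals were 893.6 in C57BL/6 and 3143 in MRL/MpJ on day 3, against 46.8 and 51.3 untreated, a mean change of 4.46 (SE 0.62), with an adjusted p of 0.0749 in limma. Dkk3, a secreted protein of the Dickkopf family, had 192.1 and 379.3 on day 3, against 53.7 and 60.9 untreated. Of 15 measured genes of Wnt signalling 9 were higher in both strains and 1 lower in both, among them the receptors Fzd2 with changes of 0.38 and 0.52 and Fzd4 with 0.38 and 0.54, whose other probe set gave -0.79 and -0.027. The pathway's median change was 0.42.

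Growth factor genes gave smaller differences. Igfbp4, an IGF binding protein, had signals of 2987 and 3124 on day 3, against 1420 and 1436 untreated. Igf1 itself had 301.2 and 595.4 on day 3, against 215.8 and 192.6 untreated, and Tgfb3, a TGF-beta ligand, had 332.6 and 882.9 on day 3, against 212.1 and 186.8 untreated. Of 28 genes of TGF-beta and BMP signalling, 13 were higher in both strains and 3 lower in both, and of 26 growth factor genes 11 and 2. Vegfd, a lymphatic growth factor, had 261.9 and 151.9 on day 3, against 104.5 and 89.6 untreated, while 24 angiogenic genes split 7 to 8 with a median change of 0.00.

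Macrophage genes were the second large group. Gpnmb, a glycoprotein of lysosome-laden macrophages, had signals of 162.2 in C57BL/6 and 376.2 in MRL/MpJ on day 3, against 12.2 and 15.1 untreated, a mean change of 2.72 (SE 0.34) with an adjusted p of 0.0637 in limma. Mpeg1, the pore-forming protein perforin-2 of macrophages, had 341 in C57BL/6 and 558.6 in MRL/MpJ on day 3, against 69.4 and 99 untreated. Cd68, a lysosomal glycoprotein of macrophages, had 340.2 and 471.4 on day 3, against 180.9 and 165.8 untreated, and Csf1r, the receptor on which they depend, had 2000 and 2359 on day 3, against 1411 and 1196 untreated. Of 16 measured macrophage markers 13 were higher in both strains and none was lower in both, with a median change of 1.01, and their summed signal was 11196 and 14483 on day 3, against 7494 and 4927 untreated. In whole tissue, more cells of a type and more RNA per cell cannot be told apart.

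Lysosomal and antigen presentation genes went with them. Ctss and Ctsc, lysosomal cysteine proteases, had signals of 943.2 and 1641 on day 3, against 432.8 and 244.1 untreated, and of 754.2 and 654.1 on day 3, against 338.8 and 266.8 untreated. Of 20 lysosomal genes 15 were higher in both strains and 1 lower in both. The class II genes H2-Aa and H2-Eb1, which present peptides to T cells, had 2857 and 1077 on day 3, against 1393 and 271.6 untreated, and 1430 and 739.7 on day 3, against 595.8 and 345 untreated. The signals of both genes were lower in MRL/MpJ than in C57BL/6 on day 3 and untreated. Whether the probes match the sequences of both strains equally well was not tested. Lgals3, galectin-3 of macrophages and fibroblasts, had 231.6 and 467.8 on day 3, against 66.8 and 64 untreated, and Clec4n, the fungal receptor dectin-2, had 296.8 and 337.8 on day 3, against 105.4 and 99 untreated, while its other probe set gave changes of -1.18 in C57BL/6 and 1.45 in MRL/MpJ.

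Signals of inflammation proper were weaker. Of 13 measured chemokine genes 8 were higher in both strains, but only Ccl8, a monocyte attractant, was at least 2-fold higher in both, at 742.7 and 947 on day 3, against 324.9 and 251.1 untreated. The complement proteases C1s1 and C1ra had 249.9 and 276 on day 3, against 104.2 and 85.4 untreated, and 326.2 and 283.2 on day 3, against 104.4 and 145.9 untreated. Of the 12 measured acute-phase and complement genes, however, 5 were higher in both strains, 2 were lower in both and 5 had opposite directions. Cytokines and their receptors split 9 higher to 2 lower of 20, with Il18 at 105.5 and 155.3 on day 3, against 56.7 and 57.6 untreated. Neutrophil markers showed no common direction: 2 of 8 were higher in both strains and 6 had opposite directions, and their summed signal was 1334 and 1218 on day 3, against 1206 and 1088 untreated. S100a9, a calgranulin that fills neutrophils, had 205.3 and 19 on day 3, against 129.5 and 126.3 untreated.

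The filter kept 6 of 8 B cell and plasma cell markers on the array, 2 of 14 of T and natural killer cells and 2 of 7 of mast cells, and 5 of the 6 B cell markers were higher in both strains. Ighm, the IgM heavy chain, had 483.7 and 325.8 on day 3, against 177.7 and 190.7 untreated, and Jchain, which joins IgM, had 149.7 and 100.1 on day 3, against 48 and 41.5 untreated. Cpa3, a protease of mast cells, had 153.4 and 189.3 on day 3, against 32.8 and 111.5 untreated.

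Fibroblast markers gave a summed signal of 32909 and 54424 on day 3, against 16370 and 17900 untreated, and 13 of 15 were higher in both strains. The list includes Col1a1, at 3516 and 7072 on day 3, so this sum is not separate from the matrix genes above. Dpt, dermatopontin of fibroblasts, had signals of 2686 and 4468 on day 3, against 995.3 and 1358 untreated. Of 9 markers of activated fibroblasts and myofibroblasts 5 were higher in both strains and none lower in both, 4 at least 2-fold. Their median changes were 0.69 in C57BL/6 and 1.63 in MRL/MpJ. Their summed signal was 5001 and 13353 on day 3, against 3472 and 2305 untreated. Postn, given above, belongs to this list and held 6776 of the MRL/MpJ sum on day 3. The contractile members of the list had opposite directions in the strains: Acta2, smooth muscle actin, had 1276 and 1807 on day 3, against 1508 and 907.3 untreated, and Tagln had 240.7 and 585.3 on day 3, against 294.8 and 225.6 untreated. Vim, the intermediate filament of mesenchymal cells, had 5037 and 8887 on day 3, against 2164 and 2810 untreated. Of 27 genes of the actin cytoskeleton 19 were higher in both strains and none lower in both, with Tmsb10, which binds actin monomers, at 1866 and 3242 on day 3, against 850.4 and 1640 untreated. Vessel genes stood the other way. Of 16 endothelial markers 2 were higher and 8 lower in both strains, their median change was -0.14, and their sum was 15252 and 12417 on day 3, against 16263 and 15505 untreated.

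**Figure D3:**
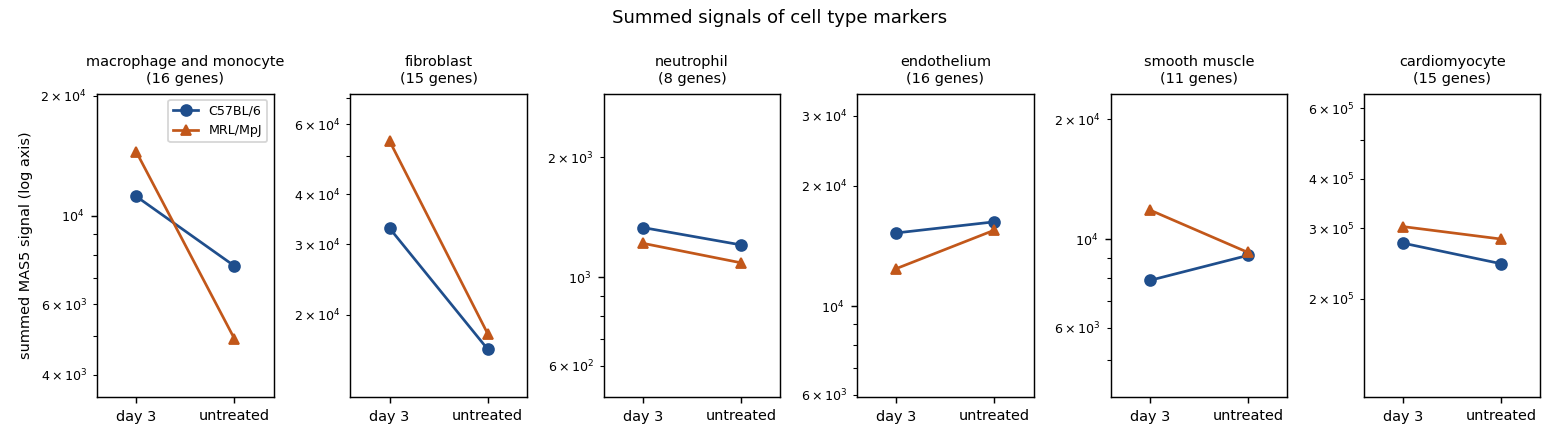
Summed signals of the kept marker genes of 6 cell types (vertical, log axis) on day 3 (left) and untreated (right), with a line joining the arrays of a strain. Sums of macrophage and fibroblast markers are higher on day 3 in both strains, and those of endothelium lower.

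Several of the 25 highest genes belong to other functions. Anpep, an aminopeptidase of myeloid cells, pericytes and fibroblasts, had signals of 178.6 in C57BL/6 and 126 in MRL/MpJ on day 3, against 20 and 17.6 untreated, a mean change of 1.92 (SE 0.24) with an adjusted p of 0.0637 in limma. Kcne4, which dampens voltage-gated potassium channels, had 246.6 in C57BL/6 and 252.6 in MRL/MpJ on day 3, against 13.6 and 58.6 untreated. Apobec1, the cytidine deaminase that edits apolipoprotein B messenger RNA, had 180.9 and 376.5 on day 3, against 22.9 and 33.2 untreated, Nupr1, a stress-induced chromatin protein, 286.6 and 308.3 on day 3, against 50.1 and 75.6 untreated, and Ecrg4, a secreted peptide precursor, 93.1 and 457.1 on day 3, against 8.2 and 28 untreated. Clec2d, a ligand of natural killer cell receptors, had 177.9 and 99.5 on day 3, against 38.9 and 11.2 untreated. All untreated signals of these 6 genes were at or under 75.6, below the median signal. Zdhhc6 and Mastl, also among the 25 highest, were not higher in both strains on their other probe sets, which gave changes of -0.08 and 0.13 for Zdhhc6 and -0.13 and 0.30 for Mastl.

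Among the rest of the 85, chosen here after their values were seen, Mpp2, a scaffold protein, had 262.8 and 146.8 on day 3, against 40.7 and 34.6 untreated, Pms2 of mismatch repair had 173.3 and 202.7 on day 3, against 44.2 and 47.8 untreated, Epha2, an ephrin receptor, had 132.7 and 137.9 on day 3, against 33.8 and 21.5 untreated, and Il18bp, a decoy for interleukin 18, had 134.2 and 84.4 on day 3, against 14 and 19 untreated. Fstl1, a secreted glycoprotein of fibroblasts, had 1032 and 3032 on day 3, against 387.5 and 425.7 untreated. Aebp1, a collagen-binding protein, had 430.5 and 631.7 on day 3, against 179.4 and 162.5 untreated.

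Genes of cell division gave small differences. Of 25 measured genes of replication and mitosis 14 were higher in both strains and 3 lower in both, with a median change of 0.16. Cdk1, the kinase of mitotic entry, had signals of 90.5 and 138.2 on day 3, against 42.8 and 39.9 untreated, and Rrm2, which makes deoxynucleotides, had 132.7 and 125.5 on day 3, against 67.3 and 81.7 untreated. Ribosomal protein genes leaned upward by little, 19 of 26 in both strains with a median of 0.16, and Rps19 had 1780 and 2501 on day 3, against 1132 and 1730 untreated.

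Stress genes of heart muscle did not share a direction. Myh7, the slow myosin heavy chain of the fetal ventricle, had signals of 1248 in C57BL/6 and 6739 in MRL/MpJ on day 3, against 338.6 and 1011 untreated, a mean change of 2.25 (SE 0.63) with an adjusted p of 0.511 in limma. Nppa, atrial natriuretic peptide, had 6605 and 28354 on day 3, against 3455 and 5781 untreated, and it is also made by the atrium, whose markers stood apart between the strains as given above. Nppb, the ventricular natriuretic peptide, had 4458 and 14070 on day 3, against 7501 and 3704 untreated, and Acta1, the skeletal actin of the fetal heart, had 2977 and 9295 on day 3, against 7377 and 8451 untreated: neither was higher in both strains. Of 16 such genes 3 were higher and 5 lower in both (background 31.3% and 26.9%).

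**Figure D4:**
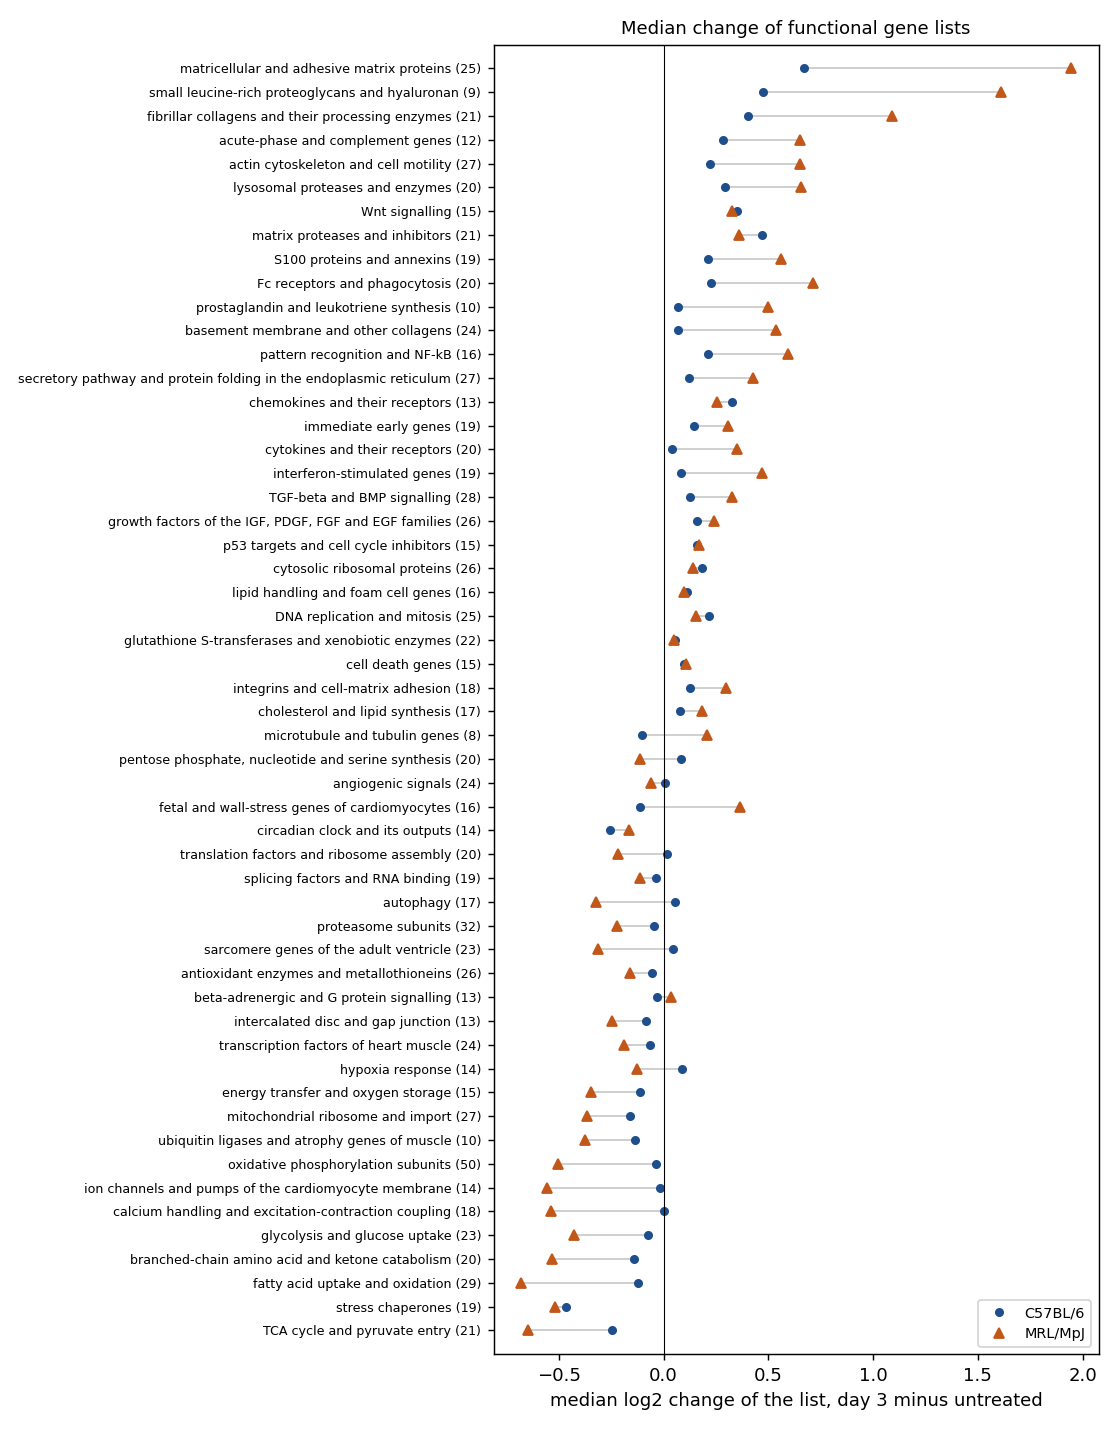
Median change on day 3 against untreated of each list of functionally related genes (log2, horizontal), C57BL/6 as circles and MRL/MpJ as triangles, with the number of measured genes after each name. The matricellular and proteoglycan lists lie furthest right in both strains, chaperone and mitochondrial lists left of 0 in both strains, with the larger shift in MRL/MpJ for most.

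Heat shock genes led the lower side. Hspa1b and Hspa1a encode the inducible HSP70 chaperone, which refolds damaged proteins, and Hspa1b had signals of 175.2 in C57BL/6 and 175.3 in MRL/MpJ on day 3, against 773.4 and 1894 untreated. Its mean change was -2.61 (SE 0.33), with an adjusted p of 0.0637 in limma, and its other 2 probe sets were lower in both strains too. Hspa1a had 135.2 in C57BL/6 and 96.3 in MRL/MpJ on day 3, against 322.7 and 770.5 untreated, though the genes are near-identical copies, so that their probe sets may share signal. Hsph1, a nucleotide exchange factor of HSP70, had 356.7 and 269 on day 3, against 730.2 and 806 untreated, and Dnajb1, its HSP40 partner, had 317 and 368.6 on day 3, against 643.2 and 751.9 untreated. The other probe set of Dnajb1 gave changes of 0.11 in C57BL/6 and -0.76 in MRL/MpJ. Of 19 measured stress chaperones 18 were lower on day 3 in both strains, 2 of them at least 2-fold, and 1 was higher in both (background 26.9% and 31.3%), with a median change of -0.47.

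The HSP70 pair is shown because these genes had the lowest mean changes of all genes kept and share their upstream sequence. The 150 bases before each transcript lie on chr17:34972157-34972306 for Hspa1a and chr17:34959239-34959388 for Hspa1b (GRCm38.p6, minus strand, RefSeq), written 5′ to 3′, and differ at 1 base. Capitals mark the letters GAANNTTC, the core of a heat shock element, which reads the same on both strands and begins 104 bases before the transcript.
Hspa1a: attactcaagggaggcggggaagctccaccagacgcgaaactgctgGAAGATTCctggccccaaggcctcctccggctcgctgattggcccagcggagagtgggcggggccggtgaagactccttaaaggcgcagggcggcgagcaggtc
Hspa1b: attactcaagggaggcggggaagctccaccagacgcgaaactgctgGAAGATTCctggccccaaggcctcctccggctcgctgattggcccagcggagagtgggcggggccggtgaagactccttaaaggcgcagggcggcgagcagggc
These letters occur in the 250 bases upstream of 6.69% of the 32851 promoters counted, which belong to 27025 genes. Of the 19 measured chaperone genes 14 have an entry, and 6 of those 14 hold the motif. The 6.69% counts promoters and the 6 of 14 counts genes, so the shares are not on equal terms. A match is a description of the letters and not a site of binding.

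A further 4 genes stood at least 2-fold lower in both strains. Ift46, a subunit of the transport complex of cilia, had signals of 31.7 in C57BL/6 and 44.6 in MRL/MpJ on day 3, against 116.5 and 190.3 untreated, a mean change of -1.42 (SE 0.23). Ciapin1, which matures iron-sulfur proteins, had 348.1 and 275.1 on day 3, against 749.3 and 722.8 untreated. Ap1m2, an adaptor subunit of epithelial sorting, had 38.9 and 27.6 on day 3, against 142.5 and 136.2 untreated, and Gpr63, a receptor for lipids, had 39.5 and 34.3 on day 3, against 160 and 109.9 untreated. Further down the 25 lowest stood Epas1, the hypoxia-inducible factor HIF-2 alpha, at 440.4 and 193.4 on day 3, against 991.6 and 381.5 untreated, and Pkia, the inhibitor of protein kinase A, at 698.9 and 213 on day 3, against 1319 and 490.8 untreated. Chd7, a chromatin remodeller, had 83.7 and 62.8 on day 3, against 171.6 and 148.2 untreated, and Thrsp, a thyroid-responsive gene of lipid synthesis, had 249.1 and 496.1 on day 3, against 465.4 and 1142 untreated. All day 3 signals of the last pair lay under the untreated signal of the same strain.

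Genes of mitochondrial fuel use were lower as a group by small amounts. Of 21 measured genes of the citric acid cycle and pyruvate entry 15 were lower in both strains and none higher in both (background 26.9% and 31.3%). Their median change was -0.50. Of the 21, 6 were lower with an unadjusted p under 0.05 in limma, against 1.99% of all genes. Pdha1, of pyruvate dehydrogenase, had signals of 7028 and 8287 on day 3, against 13364 and 11880 untreated, and Suclg1, of succinyl-CoA synthetase, had 1936 and 1691 on day 3, against 2945 and 2954 untreated. Of 29 genes of fatty acid uptake and oxidation 21 were lower and 1 higher in both strains, with a median of -0.46, which was -0.74 without the day 3 array of C57BL/6 and -0.10 without that of MRL/MpJ. Pdk4, which blocks pyruvate dehydrogenase, had 1799 and 596.9 on day 3, against 3153 and 2324 untreated, and Cpt2, of carnitine transfer, had 1385 and 854.9 on day 3, against 1964 and 1724 untreated.

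Respiratory chain subunits shifted less, with 28 of 50 lower and 2 higher in both strains and a median of -0.30. Sdhd, of complex II, had 2280 and 2185 on day 3, against 3303 and 3462 untreated. The 27 genes of mitochondrial ribosome and import had 17 lower and 2 higher in both, and 10 of 20 genes of branched-chain amino acid and ketone use were lower with none higher. In each of these 5 lists the median was lower in MRL/MpJ than in C57BL/6: -0.65 against -0.25 for the citric acid cycle, -0.68 against -0.12 for fatty acids and -0.50 against -0.03 for the respiratory chain. Glycolytic genes leaned the same way, 11 lower to 4 higher of 23, with the muscle enolase Eno3 at 6101 and 5168 on day 3, against 8081 and 10144 untreated.

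Contractile genes differed less. Of 23 adult sarcomere genes 10 were lower and 3 higher in both strains, with a median of -0.12. Genes of excitation shifted by about as much as the respiratory chain, and likewise mainly in MRL/MpJ. Of 18 calcium handling genes 9 were lower and 4 higher in both strains, with a median of -0.31. Of 14 ion channel and pump genes 8 were lower and 1 higher in both, with a median of -0.30. Cacnb2, a calcium channel subunit, had 121.5 and 89.9 on day 3, against 219.3 and 383 untreated, and Kcnk3, a background potassium channel, had 521.7 and 75 on day 3, against 804.3 and 425 untreated. Nr1d1, a clock repressor whose level swings through the day, had 359.6 and 46.1 on day 3, against 619 and 511 untreated. The labels give no hour of sampling.

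Day 3 was also set against the later days of the same strains, which asks how early healing differed from the older scar. No gene of 8195 passed an adjusted p of 0.05 in limma (0%), while 454 had an unadjusted p under 0.05. If no gene differed, 410 would be expected under that limit, so the 454 are little more than that. In all, 2331 genes (28.4%) were above the mean of days 30 and 60 in both strains and 1537 (18.8%) below it in both. Col1a1 had 3516 and 7072 on day 3 and 2587 and 3103 on day 30 and 1713 and 2151 on day 60. This was a difference of 1.09 (SE 0.29) with an adjusted p of 0.666 in limma. The other probe set of Col1a1 had 1601 and 2960.7 on day 3, 2111.5 and 906.7 on day 30 and 780.3 and 758.6 on day 60. In C57BL/6 that probe set was highest on day 30. Col11a1, one of the 10 genes furthest above the later days in both strains, had 151.2 and 388.6 on day 3 and 20.3 and 120.6 on day 30 and 92.6 and 157.9 on day 60. The other probe set of Col11a1 had 15.3 and 84.3 on day 3, 102.1 and 31.9 on day 30 and 17.8 and 29.8 on day 60. It was thus not above either later day in C57BL/6. Psrc1, a microtubule protein of dividing cells, headed those 10 with 169.8 and 160.6 on day 3 and 26 and 45.2 on day 30 and 14.2 and 39 on day 60. Psrc1 reached the filter's signal of 121 on the day 3 arrays alone, with 107.7 and 100.6 untreated. It was thus kept only through the group in which it was high, and its rank gives no separate support. Another probe set of Psrc1 had 130.7 and 30.3 on day 3, 55.6 and 22.6 on day 30 and 99.7 and 90.1 on day 60, so that it was not above both later days in MRL/MpJ. Ift46 was the lowest, with 31.7 and 44.6 on day 3 and 154.6 and 196.6 on day 30 and 140.3 and 208.1 on day 60, so that its day 3 signals lay under those of all 6 other arrays.

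Of the 10 genes furthest below the later days in both strains, Scd1, a fatty acid desaturase, had 455.6 and 435.8 on day 3 and 918.8 and 567.4 on day 30 and 1708 and 2178 on day 60. Car3, also among them, is the carbonic anhydrase of fat and muscle and had 252.7 and 132 on day 3 and 428.3 and 1022 on day 30 and 1130 and 2702 on day 60. Igkv8-30, an immunoglobulin light chain segment and the third of them named here, had 144.5 and 75 on day 3 and 290 and 140.1 on day 30 and 720.4 and 626 on day 60. Against the shared untreated arrays the change of Sfrp2 was 4.46 on day 3, 3.78 on day 30 and 4.77 on day 60. The change of Comp was 2.13, 3.00 and 4.15, and that of Gpnmb 2.72, 0.84 and 1.88. That of Hspa1b was -2.61, -3.21 and -1.79. These contrasts share the untreated arrays and are given side by side.

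**Figure D5:**
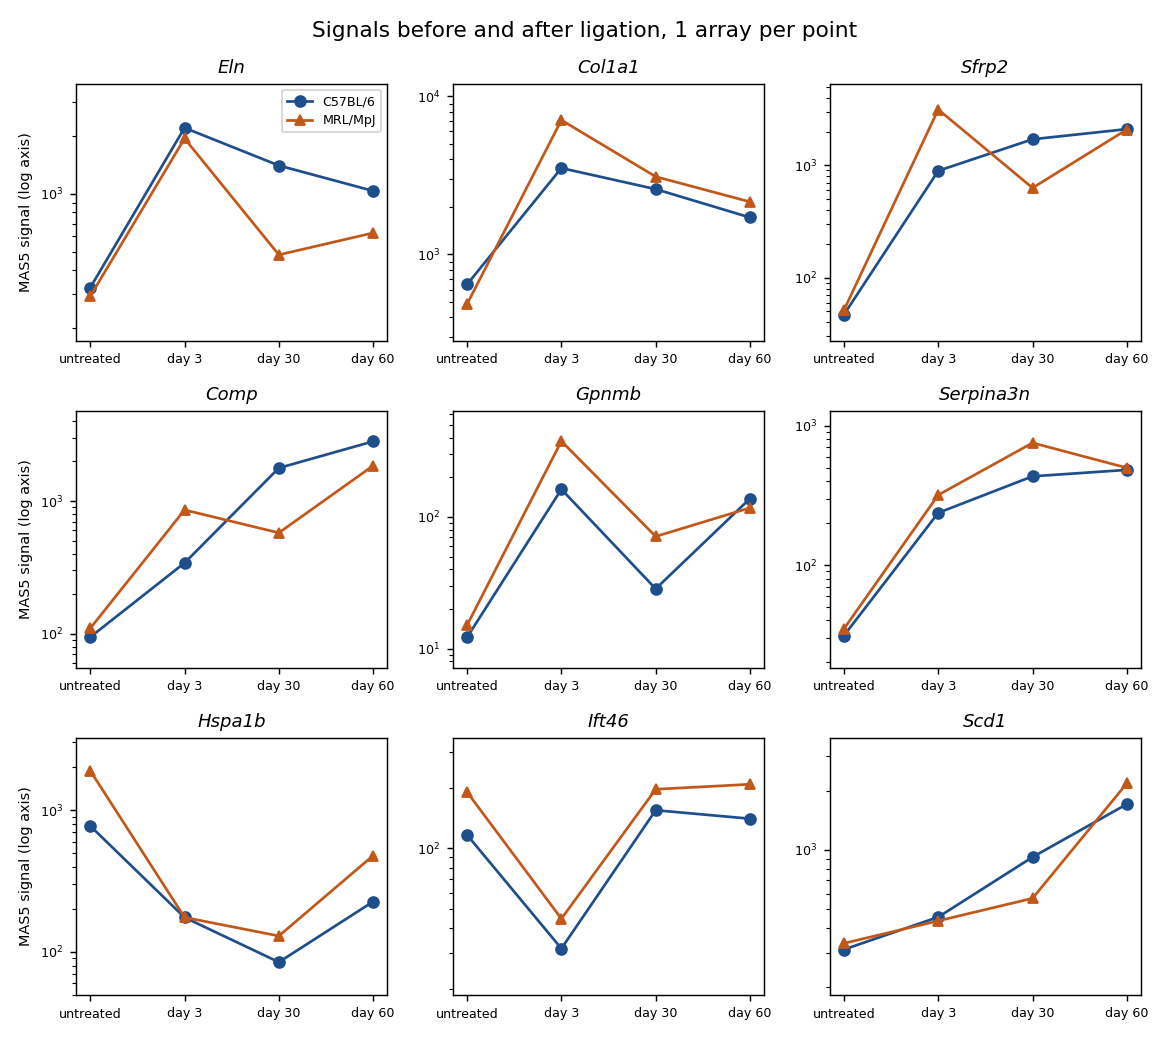
Signals of 9 genes (vertical, log axis) in untreated hearts and on days 3, 30 and 60 after ligation (horizontal, not to scale), C57BL/6 as circles and MRL/MpJ as triangles. On the probe sets shown, Eln and Col1a1 are highest on day 3 in both strains and Ift46 is lowest on day 3. Hspa1b stays under its untreated signal at all 3 times. The other probe set of Col1a1, not shown, is highest on day 30 in C57BL/6.

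Whether the strain difference on day 3 departed from its mean at the other 3 times was tested as an interaction in limma. No gene passed an adjusted p of 0.05 in it, and 417 genes had an unadjusted p under 0.05, where 410 would be expected if none differed. The difference between the strains in the change on day 3 against untreated was itself tested in a second limma fit, whose spread comes from days 30 and 60 alone. No gene passed an adjusted p of 0.05 there either, the lowest was 0.162, and 241 genes had an unadjusted p under 0.05, fewer than those 410. Of the genes with opposite directions in the strains, Sln had the widest gap, as its signals above show.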

How the data were processed

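Each sample was hybridised to 1 mouse expression array, and the authors deposited 1 signal intensity per probe set, computed with MAS5 per the submitters' processing notes. The deposited intensities are linear and were scaled per array: their 2% trimmed means lie between 247.1 and 248.3. The number of arrays, 1 per strain and time, limits the precision, and p-values measure the spread between these arrays only. Of 22626 probe sets, 20380 have 1 gene symbol, 691 several and 1555 none. Of 12393 genes, 8195 were kept, each with the probe set of the highest mean log2(signal + 28.6) and a signal of at least the median, 121, in 2 or more of 8 arrays. limma 3.58.1 fitted strain and time over all 8 arrays, with Benjamini-Hochberg adjustment, and was tested on simulated data. A change within 1 strain is the log2 difference of 2 arrays.

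The comparison and the gene lists were chosen with earlier results of these data known. The text names the 25 highest and 25 lowest genes by the smaller of the strains' changes, the 10 smallest p, the genes furthest from days 30 and 60, the widest opposite changes and up to 4 genes of a list, or those that show its members apart. Genes outside that rule were chosen after their values were seen: the genes beside the 2-fold limit and those marked so in the text. Promoters are from RefSeq (GRCm38.p6). Offset, filter, scaling, probe sets, model and each array were varied. The second fit of the strain difference was added after the data were seen.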

Additional observations from a re-analysis of the deposited data

Results flagged for a closer look

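The following genes stood out because their log2 changes on day 3 against untreated had opposite directions in the 2 strains. The difference given is the MRL/MpJ change minus the C57BL/6 change, with its SE from the limma fit whose spread comes from days 30 and 60 alone, and none passed an adjusted p of 0.05 there. Sln, a calcium pump regulator of atrial muscle, had changes of 1.66 in C57BL/6 and -2.92 in MRL/MpJ, a difference of -4.59 (SE 1.67, adjusted p = 1), and Myl7, its atrial companion, 1.23 in C57BL/6 and -2.15 in MRL/MpJ, a difference of -3.38 (SE 1.61, adjusted p = 1). Nppb, a natriuretic peptide, had -0.75 in C57BL/6 and 1.92 in MRL/MpJ, a difference of 2.66 (adjusted p = 0.609), and Acta1, skeletal actin, -1.30 in C57BL/6 and 0.14 in MRL/MpJ, a difference of 1.44 (adjusted p = 1). Acta2 and Tagln, contractile genes of smooth muscle and myofibroblasts, differed by 1.21 and 1.54 (adjusted p = 1 for each). S100a9, a neutrophil calgranulin, had 0.57 in C57BL/6 and -1.70 in MRL/MpJ, a difference of -2.27, and Car3, a carbonic anhydrase, 1.31 in C57BL/6 and -0.15 in MRL/MpJ, a difference of -1.46 (adjusted p = 0.947 and 1).

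The other genes with the widest opposite changes had signals near or under the median in several arrays. Acot3, a peroxisomal thioesterase, had signals of 18.1 and 242.7 on day 3, against 121.6 and 16 untreated, and its changes differed by 4.29 (adjusted p = 0.162 in limma). Frs3, an adaptor of growth factor receptors, had 271.8 and 52.1 on day 3, against 39.6 and 246.6 untreated, a difference of -3.91. Abca2, a lipid transporter, had 41.5 and 158.1 on day 3, against 324.9 and 38.4 untreated, a difference of 3.81, and Carns1, which makes carnosine, had 269.1 and 33.2 on day 3, against 62.3 and 162.5 untreated, a difference of -3.34. Their adjusted p was 0.515, 0.182 and 0.515 in limma.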

How the results depend on the processing

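The count of genes called between day 3 and untreated hearts was 0 in the main analysis and 12 with the offset at the median signal, 14 with the filter on the mean signal, 4 with the mean of all probe sets, 26 with an intensity trend and 2 with only the 4 arrays (Eln and Sfrp2). It was 0 whichever single array was left out. Col1a1, Col1a2, Col3a1, Eln and Sfrp2 passed under 4 alternatives each. Genes 2-fold higher in both strains numbered 30 with the offset at the median signal. Those 2-fold lower numbered 16 with the offset at the 5th percentile, 1 with the offset at the median and 18 without a filter. The comparison with days 30 and 60 and the strain interaction gave 0 calls under every alternative run, as did the second fit of the strain difference, which was run once.

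Of the 114 genes in the text, 11 reversed direction under at least 1 alternative, all of them genes with opposite directions in the strains. Leaving out 1 array at a time gave changes from -1.96 to 1.10 for Abca2, -1.52 to 2.44 for Acot3, -0.072 to 0.81 for Acta2, -0.34 to 1.496 for Car3, -1.11 to 1.20 for Carns1 and -1.46 to 1.82 for Frs3. They ran from -3.14 to 2.22 for Myl7, -0.32 to 1.49 for Nppb, -1.59 to 0.45 for S100a9, -4.03 to 2.77 for Sln and -0.060 to 1.07 for Tagln. Acta2 had -0.080 with the mean of all probe sets, and Carns1 -0.044 with the offset at the 5th percentile and -0.032 with quantile normalization. The cause was not tested. Medians of 19 of 73 lists took the other sign under at least 1 of 18 alternatives, among them angiogenic and fetal genes, and those of the collagen, matricellular, macrophage, chaperone and mitochondrial lists did not. The ranges of these medians were 0.42 to 1.002 for fibrillar collagens, 0.91 to 2.17 for matricellular genes, 0.65 to 1.32 for macrophages, -0.67 to -0.22 for chaperones, -0.71 to -0.24 for the citric acid cycle, -0.74 to -0.10 for fatty acids and -0.46 to -0.10 for the respiratory chain. The strain block of the main fit pairs the day 3 and untreated arrays of a strain, and without the strain term 0 genes were called. The single array per strain and time sets the limit on all values, and signals near the offset understate changes.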

Other observations

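Gene groups outside the account above gave smaller differences between day 3 and untreated hearts, none of which passed an adjusted p of 0.05 in limma. Ptgis, which makes prostacyclin, had signals of 733 and 911.2 on day 3, against 413.6 and 272.7 untreated, and 5 of 10 genes of prostaglandin and leukotriene synthesis were higher in both strains and 2 lower in both. Ppib, the cyclophilin that folds procollagen in the endoplasmic reticulum, had 1356 and 1594 on day 3, against 775.9 and 855.3 untreated, and 15 of 27 genes of the secretory pathway were higher in both strains and 3 lower. Ifi35, an interferon-induced gene, had 147.4 and 102.5 on day 3, against 47.1 and 33.3 untreated, and 12 of 19 interferon-stimulated genes were higher and 2 lower.

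Itgbl1, an integrin-like secreted protein, had 164.8 and 860.4 on day 3, against 75.1 and 72 untreated, while 10 of 18 genes of cell-matrix adhesion had opposite directions in the strains. Among antioxidant genes 12 of 26 were lower and 6 higher in both strains, with catalase, Cat, at 694.4 and 677.2 on day 3, against 1186 and 1084 untreated. The other probe set of Cat was higher on day 3 in both strains, with changes of 0.31 and 0.29. Of 32 proteasome subunits 15 were lower and 3 higher in both, with a median change of -0.11. Of 15 p53 targets and cell cycle inhibitors 5 were higher and 2 lower in both strains (background 31.3% and 26.9%). Another 8 had opposite directions, and the median change was 0.18. Ccng1, the lowest of them, had 3118 and 3502 on day 3, against 5020 and 5792 untreated, with a change of -0.70 (SE 0.23).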
